A study of Rattus norvegicus with 144 samples.

Results

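The transcripts described here are ENSRNOT00000038403, ENSRNOT00000042056, ENSRNOT00000047628, and ENSRNOT00000064934. They are the 2 highest and the 2 lowest by log2 difference among the transcripts past the adjusted threshold between nicotine- and saline-treated F344 rats in the prefrontal cortex (PFC). They are 4 of 39285 annotated transcripts in the 6 tables of the series, and their reference genes are ENSRNOG00000022328, ENSRNOG00000033613, ENSRNOG00000033757, and ENSRNOG00000043427 in the same order. They were selected on these FPKM values themselves, so their difference between F344_Nic and F344_Sal rats in the PFC is given as a description, with no test.

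Adult male HIV-1 transgenic (HIV-1Tg) rats and rats of the F344 control strain received nicotine or saline under the skin. In the HIV-1Tg strain the transgene is a non-infectious provirus, lacking gag and pol, whose own viral promoter drives its genes, so that cells make viral proteins but no virus. F344_Sal and HIV_Sal rats were given 1 ml/kg of saline, and F344_Nic and HIV_Nic rats 1 ml/kg of a 0.25 mg/ml nicotine solution, with 2 injections per day for 17 days. All rats had been through an earlier behavioral study. RNA came from 3 mm punches of the PFC, the dorsal hippocampus (HIP), and the dorsal striatum (STR), with 12 rats per group and region and 144 libraries in all.

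Nicotine binds nicotinic acetylcholine receptors, ion channels of neurons that open to sodium and calcium and adjust the release of several transmitters. The PFC serves working memory and choice, the dorsal hippocampus spatial and episodic memory, and the dorsal striatum habit and movement. Levels are in FPKM, the number of fragments of a transcript scaled to its length and to the mapped fragments of the library. The program that assembled the reads, Cufflinks, splits fragments between overlapping transcripts, so that an FPKM is an estimate with lower and upper limits of its own. The tables give no gene symbols, so no function is stated for any transcript here, and the regions could not be checked against marker genes. In punches of tissue, fewer cells of a type and less RNA per cell cannot be told apart.

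In the PFC, 3 of the transcripts split the F344_Nic rats into a block of 10 and a pair, rats 4 and 8. In the 10, ENSRNOT00000038403 and ENSRNOT00000042056 were above every other PFC library, and ENSRNOT00000047628 was below every other one. In rats 4 and 8 the same transcripts were near the levels of the saline rats. The block was set apart with these values known, so its separation from the rest is a description. Of 13914 annotated transcripts compared, the 10 lay above all other PFC libraries for 0.0934% and below them for 2.41%. ENSRNOT00000064934 was different: rats of both kinds were at 0.

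ENSRNOT00000038403 had 7.46 FPKM in F344_Nic rat 1, 4.68 in rat 2, 5.96 in rat 3, 6.01 in rat 5, 6.16 in rat 6, and 5.75 in rat 7. Rats 9 to 12 of the same group had 7.16, 7.26, 5.74, and 6.30 FPKM. Rat 4 had 0.143 FPKM and rat 8 had 0.103. The 10 rats therefore lay within a narrow band, with a mean of 6.25 ± 0.84 FPKM (SD, n = 10), and the other 2 lay far under it. F344_Sal rats ranged from 0.053 to 2.18 FPKM with a median of 0.236, and the highest of them, rat 10, was the single F344_Sal rat above 0.363. HIV_Sal rats ranged from 0.038 to 0.488 FPKM with a median of 0.185, and HIV_Nic rats from 0.094 to 0.721 with a median of 0.281. No library outside the block of 10 reached the lowest of the 10. The lower limits that Cufflinks gave for single-entry values in the block were 3.90 FPKM or more, and its upper limits in rats 4 and 8 were 0.378 and 0.309 FPKM.

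ENSRNOT00000042056 had 8.69, 6.55, and 7.43 FPKM in F344_Nic rats 1 to 3, and 5.63, 6.91, and 8.48 in rats 5 to 7. Rats 9 to 12 had 7.57, 6.89, 6.59, and 6.42 FPKM, and the mean of the 10 was 7.11 ± 0.94 (SD, n = 10). Rats 4 and 8 had 0.930 and 0.894 FPKM, close to the F344_Sal median of 0.784. F344_Sal rats ranged from 0 to 1.81 FPKM, HIV_Sal rats from 0 to 1.47, and HIV_Nic rats from 0 to 3.34, with 1 rat listed at 0 in each of these groups. The highest value outside the block, 3.34 FPKM in HIV_Nic rat 10, was under the lowest of the 10.

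ENSRNOT00000047628 went the other way. F344_Nic rats 1 to 3 had 0.011, 0.0073, and 0.223 FPKM, rats 5 to 7 had 0.061, 0.035, and 0.086, and rats 9 to 12 had 0.0037, 0.037, 0.061, and 0. Rat 4 had 10.2 FPKM and rat 8 had 11.1. F344_Sal rats ranged from 11.2 to 18.1 FPKM with a median of 13.9, HIV_Sal rats from 11.6 to 16.0 with a median of 13.1, and HIV_Nic rats from 10.3 to 22.9 with a median of 12.4. The 10 rats were thus at or near 0 where every other PFC library had at least 10.2 FPKM. The upper limits of Cufflinks in the 10 did not exceed 0.566 FPKM. Rats 4 and 8 were a little under the lowest F344_Sal rat, rat 9, and near the lowest HIV_Nic rat at 10.3 FPKM. The Cufflinks limits of F344_Nic rat 8, 9.11 to 13.1 FPKM, and of F344_Sal rat 9, 9.30 to 13.1, overlapped almost fully.

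ENSRNOT00000064934 was listed at 0 in F344_Nic rats 1, 3, 6, 8, 9, and 10. Rat 7 had 1.62 FPKM, and rats 2, 4, 5, 11, and 12 had 31.2, 56.9, 26.8, 25.4, and 22.4 FPKM. F344_Sal rat 12 was also at 0, while the other F344_Sal rats had 22.4 to 93.0 FPKM. HIV_Sal rats ranged from 19.9 to 95.99 FPKM, and HIV_Nic rats from 0, in rat 6, to 102. Here the groups overlapped, and rats 4 and 8 did not stand together: rat 4 was the highest F344_Nic rat and rat 8 was at 0. With a length of 129 bases this is the shortest of the 4, and the limits of Cufflinks were wide. They ran from 0 to 62.3 FPKM in rat 2 and from 25.3 to 88.4 in rat 4.

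**Figure D1:**
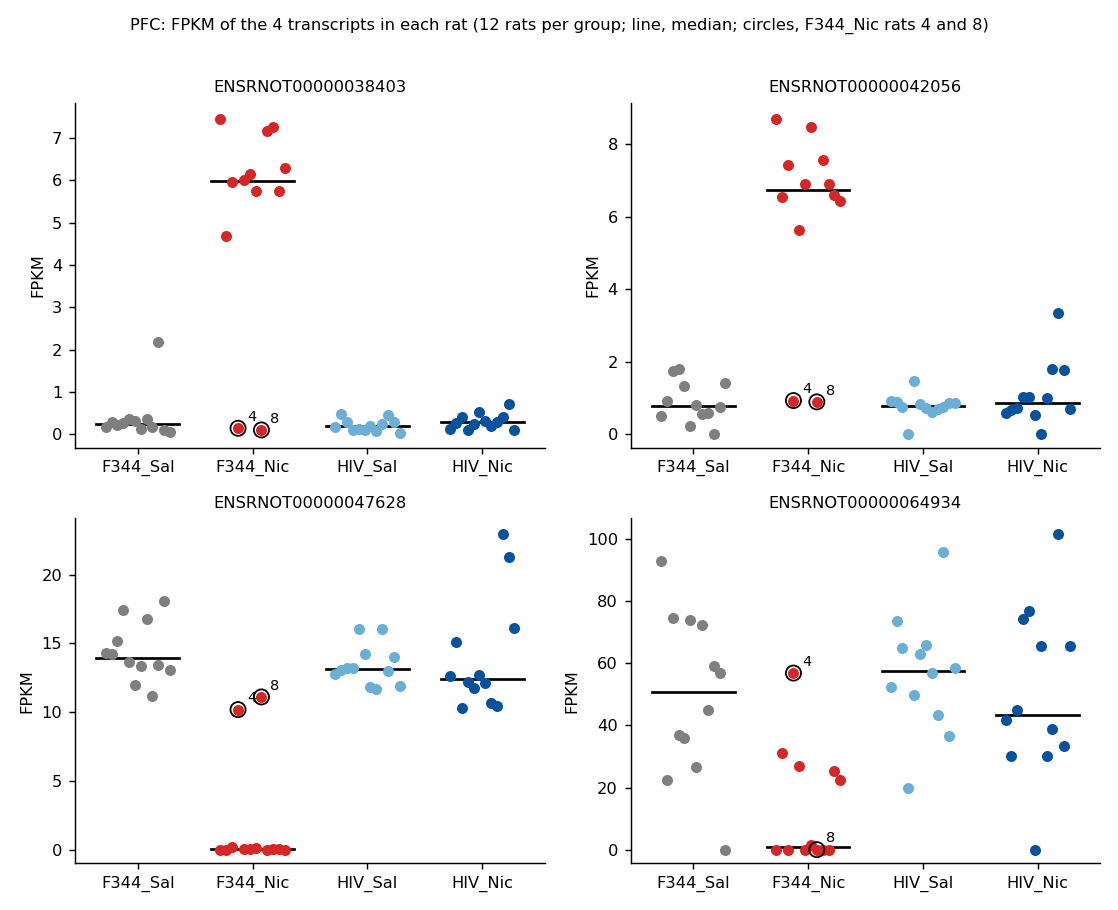
FPKM of each transcript (vertical axis) in the PFC of the 12 rats of each group (horizontal axis), with a line at the group's median and circles around F344_Nic rats 4 and 8. The 10 other F344_Nic rats lie above all libraries for ENSRNOT00000038403 and ENSRNOT00000042056 and below all for ENSRNOT00000047628, while for ENSRNOT00000064934 the groups overlap and 6 F344_Nic rats are at 0.

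On the scale of log2(FPKM + 0.1), the differences that chose the transcripts, F344_Nic minus F344_Sal in the PFC, were 3.33 ± 0.47 (SE) for ENSRNOT00000038403, 2.71 ± 0.46 for ENSRNOT00000042056, -5.61 ± 0.51 for ENSRNOT00000047628, and -4.42 ± 1.12 for ENSRNOT00000064934. Among 14583 transcripts tested with limma in this contrast, 86 were past an adjusted p of 0.05 in the higher direction (0.59%) and 668 in the lower direction (4.58%). The transcript just outside the choice on the high side was ENSRNOT00000018878, at 2.50. The one just outside on the low side was ENSRNOT00000029795, at -4.40, next to the value of ENSRNOT00000064934. ENSRNOT00000064934 also entered the contrast with the smallest number of F344_Nic rats allowed, 6 above 0.01 FPKM. With only the 24 samples compared in the fit, it was no longer past the adjusted threshold. Without rats 4 and 8 the differences were 4.13 for ENSRNOT00000038403, 3.19 for ENSRNOT00000042056, and -6.65 for ENSRNOT00000047628. ENSRNOT00000064934 then had too few rats above 0.01 FPKM to be compared, as it also had without rat 4 alone.

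The block of 10 was also visible outside these transcripts. Of 13914 annotated transcripts with a value in all 48 PFC libraries and above 0.01 FPKM in at least 24, the 10 rats lay above the other 38 libraries for 13 (0.0934%) and below them for 335 (2.41%). These 2 counts cannot be compared with each other, because the filter keeps a transcript that is absent from the 10 alone and drops one that is present in the 10 alone. ENSRNOT00000038403 and ENSRNOT00000042056 are among the 13 and ENSRNOT00000047628 is among the 335, which follows from the values that chose them. Short transcripts were frequent in both lists: 69.2% of the 13 and 63.9% of the 335 were under 700 bases, against 14.9% of all 13914. The median length was 501 bases in the 13 and 566 in the 335, against 1758 in all. The 4 chosen transcripts, at 433, 369, 387, and 129 bases where their entries were shortest, were all under 700 bases.

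Rows of the tables carry a Cufflinks class code that says how an assembled transcript relates to the annotation, where = marks an exact match. Class s marks a transcript with an intron that overlaps an annotated intron on the opposite strand, which the documentation of Cufflinks links to errors in read mapping. The number of class s rows with a value was 27 to 40 in the 10 F344_Nic PFC libraries. It was 99 in rat 4, 95 in rat 8, and 52 to 120 over all libraries of the series outside the block, so the 10 did not overlap with any other library, whatever the region, strain, or drug. Class u rows, which lie between genes, numbered 1301 to 1662 in the 10, 3233 in rat 4, and 2896 in rat 8, but 1335 to 5321 in the other 38 PFC libraries, which overlaps with the 10. Transcripts above 0.01 FPKM numbered 15148 to 15552 in the 10 and 15356 to 16440 in the other 38. Read totals are unknown, but base coverage divided by FPKM, which grows with the fragments of a library, was 2.28 to 2.60 in the 10, 3.55 in rat 4, 3.40 in rat 8, and 2.08 to 3.56 in the other 38, so rats 4 and 8 were among the deepest PFC libraries and the 10 were within the range of the rest. Against all other libraries, only the class s rows separated the same 10 as the levels of ENSRNOT00000038403, ENSRNOT00000042056, and ENSRNOT00000047628. Within the F344_Nic PFC group, the class u rows and the ratio of coverage to FPKM also set rats 4 and 8 apart from the 10. So did class i rows, which lie inside introns, at 7288 and 7406 against 5066 to 6190. In the other PFC groups these measures overlapped with the 10: F344_Sal rats 4 and 8, for example, had 1393 and 1335 class u rows. The part of any of these measures in the result was not tested.

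**Figure D2:**
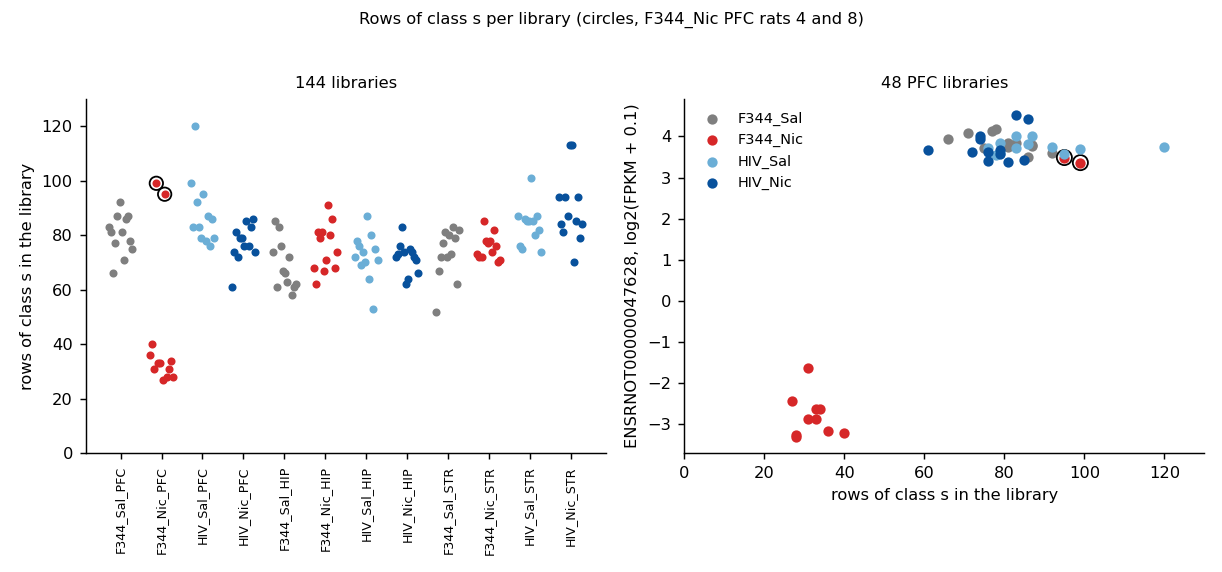
Left, number of class s rows with a value in each of the 144 libraries (vertical axis) by group and region, with F344_Nic PFC rats 4 and 8 circled; right, the level of ENSRNOT00000047628 as log2(FPKM + 0.1) against the class s rows of the 48 PFC libraries. The 10 other F344_Nic PFC libraries hold 27 to 40 such rows and are the low cluster in both panels, and rats 4 and 8, with 99 and 95, lie with the rest.

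In the HIP and STR, no library had the levels of ENSRNOT00000038403, ENSRNOT00000042056, and ENSRNOT00000047628 seen in the 10 PFC libraries. Over all libraries of both regions ENSRNOT00000038403 ranged from 0.031 to 2.08 FPKM with a median of 0.465, against at least 4.68 in the block of 10. ENSRNOT00000042056 ranged from 0 to 3.84 FPKM, against at least 5.63. ENSRNOT00000047628 ranged from 7.26 to 22.5 FPKM with a median of 12.6, against at most 0.223. The labels do not say whether a rat number marks the same animal in each region.

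F344_Nic rats 4 and 8 did not form a pair in the other regions. For ENSRNOT00000038403, rat 4 had 0.718 FPKM and rat 8 had 0.441 in the HIP, within the 0.181 to 0.724 of the other 10. In the STR they had 0.522 and 0.470 FPKM, within 0.133 to 0.658. For ENSRNOT00000047628 in the HIP, rat 4 was just under and rat 8 within the range of the other 10, which was 10.2 to 14.8 FPKM. In the STR they had 14.9 and 12.7 FPKM, within 10.9 to 18.2. For ENSRNOT00000042056 in the HIP, rat 4 was the highest of the group at 1.18 FPKM and rat 8 had 0.222, with 0.202 to 1.14 in the other 10.

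ENSRNOT00000064934 was listed at 0 in some rats of most groups and regions, not in nicotine-treated rats alone. In the HIP, 4 F344_Nic, 1 F344_Sal, 3 HIV_Sal, and 0 HIV_Nic rats were at or below 0.01 FPKM. In the STR the numbers were 5 F344_Nic, 3 F344_Sal, 5 HIV_Sal, and 4 HIV_Nic rats. In the PFC they were 6 F344_Nic, 1 F344_Sal, 0 HIV_Sal, and 1 HIV_Nic rats. Where it was above 0.01 FPKM in the HIP and STR it reached 83.9 FPKM, and rats 4 and 8 of F344_Nic had 45.6 and 66.9 FPKM in the HIP and 42.4 and 26.8 in the STR. An exact 0 can also be a failed estimate of a transcript this short.

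ENSRNOT00000042056 was listed at 0 in all 12 F344_Nic rats of the STR. In rat 5 the upper limit of Cufflinks was 2095 FPKM, so the 0 of this rat is not an estimate of absence, and in the other 11 the limits were 0. In the F344_Sal STR it was listed at 0 in 6 rats and had 1.70, 1.75, 2.15, 2.59, 2.75, and 3.84 FPKM in the other 6, so the groups overlapped at 0. In HIV-1Tg rats 2 of 12 were above 0.01 FPKM in each treatment, at 1.14 and 1.39 FPKM with saline and 1.75 and 3.47 with nicotine. The transcript did not pass the filter on low values in the STR and was not tested there. In the HIP it was above 0.01 FPKM in all 12 F344_Nic rats, 9 F344_Sal, 9 HIV_Sal, and 11 HIV_Nic rats.

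**Figure D3:**
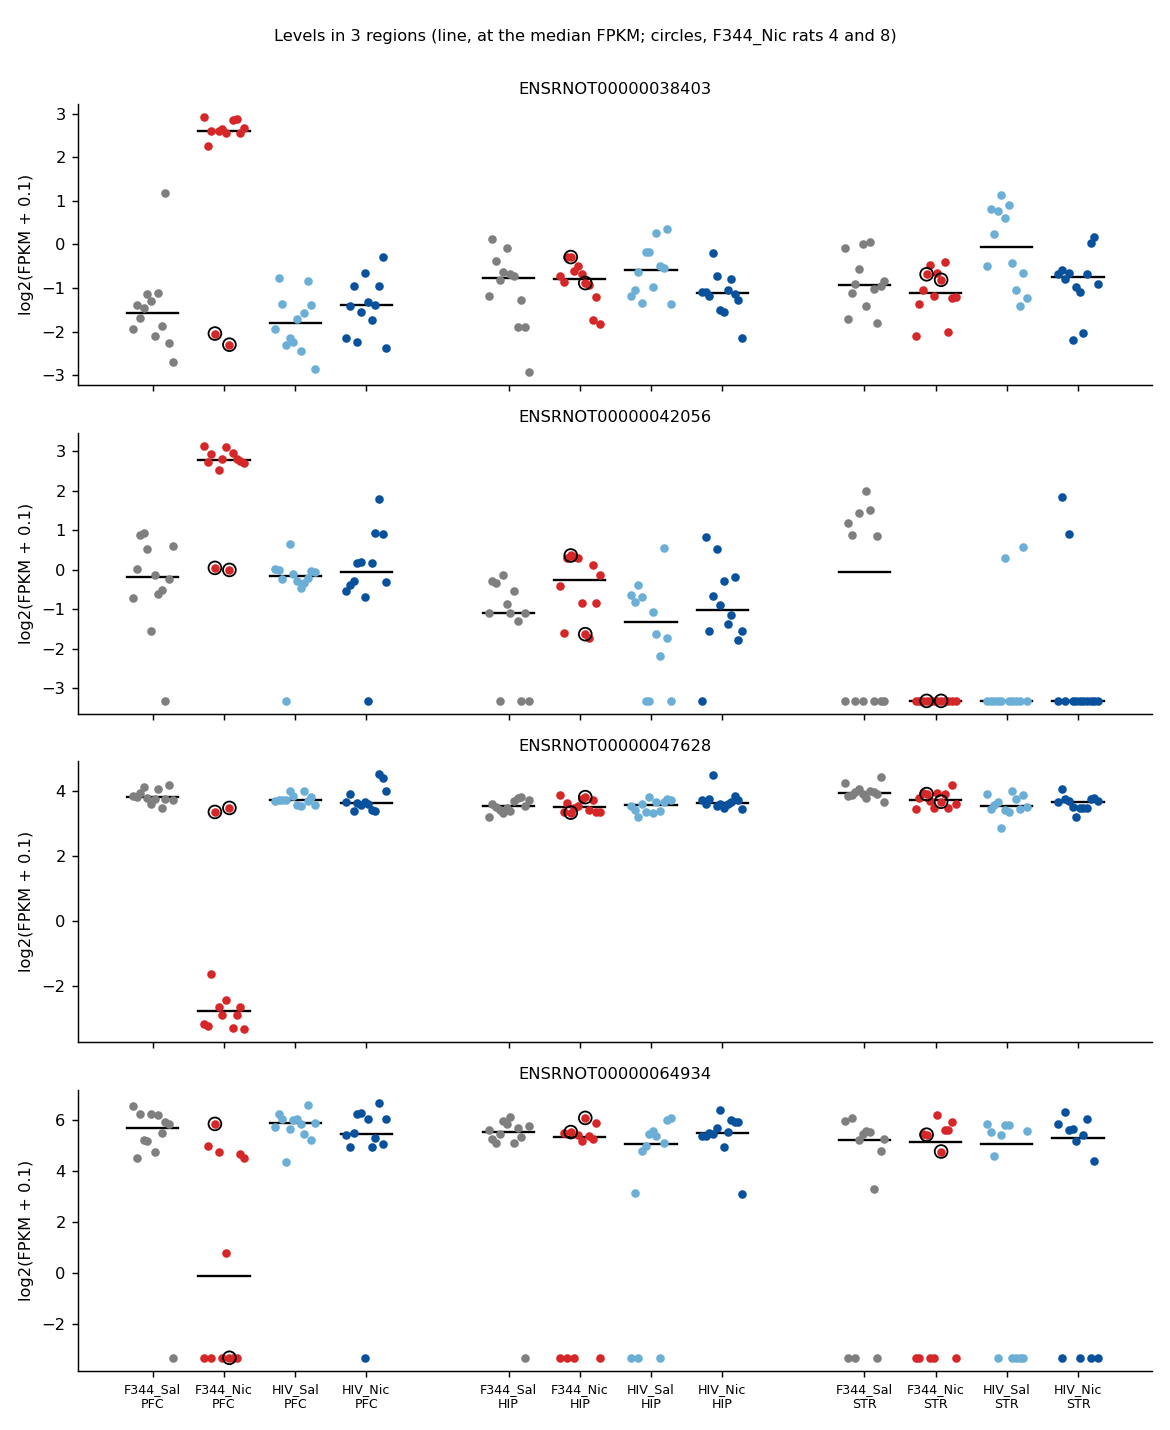
Levels of each transcript as log2(FPKM + 0.1) (vertical axis) in the 12 rats of each group in the PFC, HIP, and STR, with a line at the level of the group's median FPKM and circles around F344_Nic rats 4 and 8. The departure of 10 F344_Nic rats is in the PFC for the upper 3 transcripts, and the points of ENSRNOT00000042056 and ENSRNOT00000064934 at the lowest level are libraries listed at 0.

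The question of whether nicotine moved the same transcripts elsewhere was tested with limma in the PFC of HIV-1Tg rats and in the HIP and STR of both strains. Of 32 tests outside the contrast that chose the transcripts, which also include 2 comparisons of strain and 2 of the nicotine difference between strains, 0 passed an adjusted p of 0.05 and 6 had an unadjusted p under 0.05. The lowest adjusted p was 0.145. Over all transcripts of the same 9 comparisons, the shares past the adjusted threshold were also small. They were 0% of 14715 for HIV_Nic against HIV_Sal in the PFC, 0.00666% and 0% for F344 and HIV-1Tg rats in the HIP, and 0.00667% and 0.248% in the STR. For HIV_Sal against F344_Sal they were 0.0535% in the HIP and 0.0596% in the STR, and for the difference between strains 0% in both. The shares with an unadjusted p under 0.05 were 6.89% in the PFC of HIV-1Tg rats, 6.62% and 5.98% for nicotine in the HIP of F344 and HIV-1Tg rats, and 4.53% and 7.28% in the STR. They were 4.9% and 7.4% for strain in the HIP and STR, and 7.82% and 4.96% for the difference between strains.

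In the PFC of HIV-1Tg rats, the groups overlapped for every one of the 4 transcripts. The log2 difference of HIV_Nic from HIV_Sal was 0.38 ± 0.47 (SE, adjusted p = 0.899) for ENSRNOT00000038403 and 0.25 ± 0.46 (adjusted p = 0.952) for ENSRNOT00000042056. It was 0.02 ± 0.51 (adjusted p = 0.999) for ENSRNOT00000047628, with a 95% interval of -0.996 to 1.038, and -0.82 ± 1.12 (adjusted p = 0.924) for ENSRNOT00000064934, with an interval of -3.08 to 1.44. These SEs include the spread of the split F344_Nic group, since the 4 groups of a region were fitted together. With only the 24 HIV-1Tg rats in the fit, the differences were the same and the SEs were 0.26 for ENSRNOT00000038403, 0.45 for ENSRNOT00000042056, 0.13 for ENSRNOT00000047628, and 0.76 for ENSRNOT00000064934, with adjusted p of 0.864 to 0.987. HIV_Nic rats 10 and 11 had the 2 highest HIV_Nic values of ENSRNOT00000047628, 22.9 and 21.3 FPKM, and rat 10 the highest value of ENSRNOT00000042056 in its group. Without both, the differences of these transcripts were -0.12 and -0.04.

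In the HIP of F344 rats, ENSRNOT00000047628 had a median of 11.5 FPKM with saline and 11.3 with nicotine. Its log2 difference was 0.01 ± 0.09 (SE, limma adjusted p = 0.998), with a 95% interval of -0.18 to 0.20. ENSRNOT00000038403 differed by 0.15 ± 0.26 (adjusted p = 0.957) and ENSRNOT00000042056 by 0.91 ± 0.45 (adjusted p = 0.755), with 95% intervals of -0.37 to 0.67 and -0.01 to 1.82. ENSRNOT00000064934 differed by -2.25 ± 1.29 (adjusted p = 0.793), with an interval of -4.84 to 0.35. With outliers beyond 1.5 interquartile ranges and zeros removed, its difference was -0.12 and that of ENSRNOT00000042056 was 0.26.

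In the STR of F344 rats, ENSRNOT00000047628 had a median of 15.3 FPKM with saline and 13.3 with nicotine, a log2 difference of -0.22 ± 0.10 (SE, unadjusted p = 0.0395, limma adjusted p = 0.9998). The groups overlapped, with 12.6 to 21.6 FPKM in saline and 10.9 to 18.2 in nicotine rats. ENSRNOT00000038403 differed by -0.24 ± 0.29 and ENSRNOT00000064934 by -1.23 ± 1.75, the latter with an interval of -4.75 to 2.29.

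In HIV-1Tg rats, the median of ENSRNOT00000038403 was lower with nicotine than with saline in both the HIP and the STR, and neither difference passed the adjusted threshold. In the HIP the median was 0.567 FPKM in HIV_Sal and 0.360 in HIV_Nic rats, and the log2 difference was -0.53 ± 0.26 (SE, unadjusted p = 0.0463, limma adjusted p = 0.816). In the STR the medians were 0.867 and 0.499 FPKM, and the difference was -0.80 ± 0.29 (unadjusted p = 0.00896, adjusted p = 0.398). Both are opposite in sign to the F344 difference in the PFC, and the groups overlapped in both regions. ENSRNOT00000047628 had differences of 0.16 ± 0.09 (HIP) and 0.05 ± 0.10 (STR), with adjusted p of 0.859 and 0.972. ENSRNOT00000064934 differed by 2.38 ± 1.29 in the HIP (adjusted p = 0.859), where 3 HIV_Sal rats and 0 HIV_Nic rats were at 0, and by 0.76 ± 1.75 in the STR. ENSRNOT00000042056 differed by 0.60 ± 0.45 in the HIP. With outliers and zeros removed, the values of ENSRNOT00000064934 were 0.22 and 0.054 and that of ENSRNOT00000042056 was 0.22.

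Between the saline groups, the difference with the lowest unadjusted p among the 4 transcripts was that of ENSRNOT00000047628 in the STR. F344_Sal rats had 12.6 to 21.6 FPKM with a median of 15.3, and HIV_Sal rats 7.26 to 16.1 with a median of 11.6, so the groups overlapped. The log2 difference, HIV_Sal minus F344_Sal, was -0.40 ± 0.10 (SE, unadjusted p = 0.000346, limma adjusted p = 0.145). In the HIP the same difference was -0.01 ± 0.09 (adjusted p = 0.9999). ENSRNOT00000038403 was at 0.424 FPKM in the median F344_Sal and 0.867 in the median HIV_Sal STR, a log2 difference of 0.79 ± 0.29 (unadjusted p = 0.00932, adjusted p = 0.460), and at 0.486 and 0.567 FPKM in the HIP, a difference of 0.42 ± 0.26. The strain difference in the STR and the nicotine difference of HIV-1Tg rats share the HIV_Sal rats, so the 2 values of ENSRNOT00000038403 there are not separate observations. The saline groups of the PFC are given as levels above, since F344_Sal took part in choosing the transcripts.

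The nicotine difference of HIV-1Tg rats minus that of F344 rats was tested in the HIP and STR. ENSRNOT00000064934 had the largest value, 4.63 ± 1.83 on the log2 scale in the HIP (SE, unadjusted p = 0.0147, limma adjusted p = 0.562). It rests on zeros, which were in 4 F344_Nic, 1 F344_Sal, and 3 HIV_Sal rats, and was 0.35 with outliers and zeros removed. For ENSRNOT00000047628 the values were 0.15 ± 0.13 in the HIP and 0.27 ± 0.15 in the STR, and for ENSRNOT00000038403 -0.68 ± 0.37 and -0.56 ± 0.41.

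**Figure D4:**
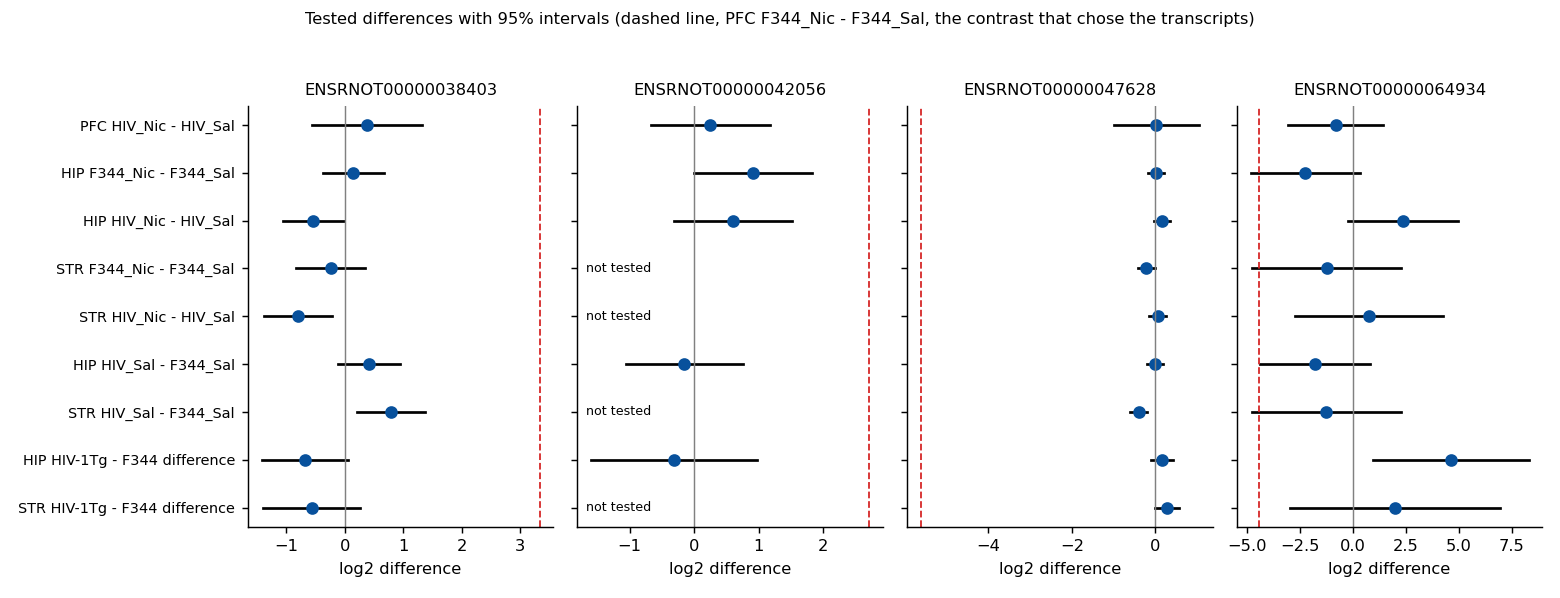
Log2 differences (horizontal axis) of each transcript with 95% intervals in the 9 comparisons that did not choose them (vertical axis); the dashed line is the PFC difference of F344 rats, shown for scale. No comparison passed the adjusted threshold, and the intervals are narrowest for ENSRNOT00000047628 in the HIP and STR and widest for ENSRNOT00000064934.

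The other rows of the genes were mostly at 0, with exceptions in single libraries and in the STR. ENSRNOG00000022328 had no row other than ENSRNOT00000038403, so the gene and the transcript are the same measurement. ENSRNOG00000033757, the gene of ENSRNOT00000047628, has 2 further annotated transcripts, ENSRNOT00000042378 and ENSRNOT00000057291. The latter did not exceed 0.0067 FPKM in any library. The former was above 0.01 FPKM in 2 libraries of the series, both of the 10: F344_Nic PFC rat 1 had 0.0113 FPKM and rat 5 had 0.0610, next to 0.0113 and 0.0614 of ENSRNOT00000047628 in the same rats. A class i row, which lies inside an intron of ENSRNOT00000057291, had 39.2 FPKM in F344_Sal PFC rat 11 and was at 0 in the other PFC libraries.

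ENSRNOG00000033613, the gene of ENSRNOT00000042056, had class o rows, which overlap its exons without matching them. In the STR 1 such row was above 0.01 FPKM in 10 libraries, with up to 9.04 FPKM and assembled lengths of 7329 to 8710 bases, against 369 to 414 bases for ENSRNOT00000042056 itself. Of the 21 STR libraries with any signal of the gene, 10 had all of it in ENSRNOT00000042056, and in the other 11 this transcript was at 0. Of the 12 F344_Nic STR rats, where ENSRNOT00000042056 was at 0, rats 3, 6, and 8 had 4.77, 9.04, and 4.85 FPKM in the long row. In the PFC and HIP a class o row was above 0.01 FPKM in 1 library each, that of F344_Sal rat 10, where ENSRNOT00000042056 itself was at 0. ENSRNOG00000043427, the gene of ENSRNOT00000064934, had class e rows, single-exon fragments that overlap both an exon and an intron, above 0.01 FPKM in 1 PFC library, 1 HIP library, and up to 2 STR libraries per row, with at most 8.88 FPKM. The PFC library was that of F344_Nic rat 8, with 4.72 FPKM, where ENSRNOT00000064934 was at 0, so rat 8 was not without signal at this gene.

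The assembled length also varied. The entry of ENSRNOT00000042056 was marked as extended beyond its annotated end in all 10 F344_Nic PFC rats of the block, at 400 to 414 bases, and had 369 bases in rats 4 and 8. It was extended in 14 of the other 38 PFC libraries, 30 of 48 HIP libraries, and 1 of 48 STR libraries, so the extended form was not limited to the 10. ENSRNOT00000047628 was extended in all 10 and in 35 of the other 38 PFC libraries, with median lengths of 448 and 432 bases. ENSRNOT00000038403 was 433 bases in nearly all libraries. Its value in F344_Nic PFC rat 2 is the sum of 2 entries for this transcript, and it is the lowest of the 10.

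The transcripts with the most similar pattern were sought among 15387 annotated ones above 0.01 FPKM in at least 24 of the 48 PFC libraries, by the Spearman correlation of log2(FPKM + 0.1) over these libraries, which share a region and differ in strain, drug, and depth. The closest to ENSRNOT00000047628 were ENSRNOT00000044756, ENSRNOT00000043250, and ENSRNOT00000051596, with rho of 0.80, 0.79, and 0.78. ENSRNOT00000044756 had 5.09 to 8.10 FPKM in the block of 10 and 9.03 to 38.3 in the other 38 libraries. ENSRNOT00000043250 had 0.846 to 2.73 against 4.94 to 16.6 FPKM, and ENSRNOT00000051596 had 0 to 8.63 against 9.66 to 52.6. All 3 were lower in the 10 than in any other PFC library, with rats 4 and 8 among the rest at 10.8 and 11.3, 6.64 and 6.57, and 11.6 and 12.4 FPKM. The pick by correlation over these same libraries favors such a repeat of the split, here and for the transcripts named below. Among the 13914 transcripts compared above, 2.41% were lower in this way. Over the 48 HIP libraries the same correlations were 0.14, 0.26, and -0.00, and over the 48 STR libraries 0.52, 0.44, and -0.18.

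The closest to ENSRNOT00000038403 were ENSRNOT00000020434, ENSRNOT00000042756, and ENSRNOT00000045531, with rho of 0.75, 0.73, and 0.71 in the PFC, -0.01, 0.07, and 0.28 in the HIP, and 0.34, 0.26, and 0.12 in the STR. ENSRNOT00000042756 had 23.7 to 31.1 FPKM in the 10 rats, 9.63 in rat 4, 8.71 in rat 8, and 7.52 to 24.6 in the other 38. For each of these 3 transcripts the 10 overlapped with the other 38.

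The closest to ENSRNOT00000042056 were ENSRNOT00000027484, ENSRNOT00000033369, and ENSRNOT00000045272, with rho of 0.69, 0.66, and 0.64 in the PFC and 0.03, -0.22, and 0.04 in the HIP. In the STR, where ENSRNOT00000042056 was mostly at 0, they were 0.41, -0.02, and -0.12. ENSRNOT00000027484, the most abundant of those named, had 204 to 255 FPKM in the 10 rats, 109.6 in rat 4, 123 in rat 8, and 84.7 to 133 in the other 38, without overlap. The other 2 overlapped: ENSRNOT00000033369 had 2.35 to 3.61 FPKM in the 10 and up to 4.41 in the other 38, and ENSRNOT00000045272 had 7.26 to 9.70 and up to 25.04.

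The closest to ENSRNOT00000064934 were ENSRNOT00000028111, ENSRNOT00000032599, and ENSRNOT00000040909, with rho of 0.65, 0.64, and 0.63 in the PFC, -0.08, 0.01, and 0.18 in the HIP, and 0.03, 0.14, and 0.11 in the STR. ENSRNOT00000040909 had 0.576 to 1.06 FPKM in the 10 and 4.81 to 26.2 in the other 38, with 6.05 and 6.15 in rats 4 and 8. Unlike it, ENSRNOT00000064934 was at 0 in rat 8. Between the chosen transcripts themselves, rho over the 48 PFC libraries was 0.49 for the pair that was high in the block, 0.46 for the pair that was low, and between -0.32 and -0.45 across the pairs, as the choice of members leads to. It was between -0.26 and 0.16 for all 6 pairs in the HIP and between -0.01 and 0.28 in the STR.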

How the data were processed

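The authors sequenced 144 libraries, 1 lane each, aligned 50 bp reads to the rat genome Rn4 with TopHat and Bowtie (1.04 in the submitters' processing notes), and deposited Cufflinks FPKM per transcript in 6 tables. Each deposited cell packs FPKM (used here), limits, coverage, length, and other fields. 0 columns were unused. FPKM is divided by transcript length and mapped fragments, and the sources used here give no read totals, so no counting interval was made.

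FPKM of several entries in 1 cell were summed. Transcripts of class = were tested as log2(FPKM + 0.1), which understates changes of low values, with limma 3.58.1 in R 4.3.3 (trended prior, the 4 groups of a region in 1 fit), if above 0.01 FPKM in at least 6 of 12 rats of each group compared. P values were adjusted by Benjamini-Hochberg over all transcripts tested. The fit was also run on simulated normal values, which held no zeros and no split group, so that run does not bear on either. The study's methods name an ANOVA of strain and sex, and the groups differ in strain and drug, which were used. The study's limit was an unadjusted p of 0.05 with a 1.2-fold change.

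The members and lists were chosen with earlier results of these data known. Named transcripts are the 4, the one just outside the choice on each side, the other rows of their genes, and the 3 with the highest Spearman correlation to each of the 4. Of 8 transcript and gene identifiers, 0 matched the reference tables, so symbols, markers, positions, and sequences are not used here. Alternatives are listed after the report. Rats of a group are separate animals per the labels.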

Additional observations from a re-analysis of the deposited data

How the results depend on the processing

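Depth limits the low and short transcripts most: read totals are unknown, ENSRNOT00000064934 has 129 bases and many zeros, and intervals from Cufflinks are wide there. The alternatives were a pseudocount of 1 or 0.01, median scaling, no filter on low values, a mean of at least 1 FPKM, removal of outliers beyond 1.5 interquartile ranges, only the 24 samples compared, sample weights, a replicate block, FPKM summed per gene, missing values as 0, and a two-sided permutation test with 100000 resamples. Chosen after seeing the data were the first entry of each cell, leaving out HIV_Nic rats 10 and 11 in the PFC or rat 4 in the HIP, and leaving out each library in turn for the 6 tests with an unadjusted p under 0.05. Over 36 results, 440 of 452 alternative values kept the direction and, for tests, the side of the threshold. These totals include the contrast that chose the transcripts, which has no test here and whose direction was fixed by the choice. Values of that contrast counted as kept when they moved by less than 1 SD between rats. This is a wide measure: with a pseudocount of 0.01, ENSRNOT00000047628 went from -5.61 to -7.12 and was counted as kept. Permutation results were judged by the unadjusted p. The 175 values without 1 library, F344_Nic PFC rat 4 or 8 included, were kept by the same measures, but ENSRNOT00000064934 has no value without rat 4. The lowest limma adjusted p under any alternative, outside the contrast that chose the transcripts, was 0.0619, for ENSRNOT00000047628 between the saline groups of the STR without 1 library.

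The value of ENSRNOT00000047628 that chose it moved to -3.28 with a pseudocount of 1, as its near-zero values are then raised. With only the 24 samples compared, ENSRNOT00000064934 was no longer past the adjusted threshold by which it was chosen. Small differences changed sign: in HIV-1Tg PFC rats ENSRNOT00000042056 to -0.043 and ENSRNOT00000047628 to -0.12 without rats 10 and 11, and the latter to -0.10 with sample weights. In the HIP, ENSRNOT00000047628 between saline groups went to 0.019 with median scaling, and ENSRNOT00000042056 in the difference between strains to 0.13 with FPKM summed per gene. With outliers and zeros removed in the STR, ENSRNOT00000064934 went to 0.22 for nicotine in F344, 0.18 for strain, and -0.17 for the difference between strains, and ENSRNOT00000047628 to -0.011 for nicotine in HIV-1Tg rats. The cause was not tested.

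The permutation test gave p = 0.0444 for ENSRNOT00000042056 (0.91, nicotine in F344 HIP) and p = 0.0499 for ENSRNOT00000064934 (2.38, nicotine in HIV-1Tg HIP), unadjusted, where limma gave 0.0513 and 0.0713. It was not run for the difference between strains. Without the filter, ENSRNOT00000042056 in the STR had -2.31 for nicotine in F344 rats (limma unadjusted p = 0.00156, adjusted p = 1), 0.15 in HIV-1Tg rats (0.823 and 1), -1.69 for strain (0.0180 and 0.894; -0.98 summed per gene), and 2.47 for the difference between strains (0.0146 and 1). With a replicate block, ENSRNOT00000047628 between the saline groups of the STR kept -0.40 (adjusted p = 0.138), and no call of the 4 transcripts changed. The block moved the calls over all transcripts from 9 to 5 in that comparison, from 8 to 5 in the HIP, from 1 to 0 for nicotine in F344 HIP rats, and from 37 to 26 for nicotine in HIV-1Tg STR rats. The labels do not pair rats of different groups by number, and the deviations of same-numbered rats correlated between -0.20 and 0.17, with at most 1 of 12 rats per comparison closest to its own number.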
